A study of Mus musculus with 12 samples.

Results

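The 37 genes described here take part in the interferon response and in antigen presentation by class I molecules. They were taken by name, as interferon-induced effectors, interferon receptors, sensors of foreign RNA, transcription factors of the pathway, and parts of the machinery that cuts, transports and loads peptides. A gene was read from the array feature that carries its symbol alone, and from the feature with the highest mean where several do, with no filter on signal. In this way 32 of the 37 could be measured, of 19938 genes in all: 16 effectors, 6 regulators, 6 presentation genes, 2 sensors and 2 receptors. Isg15, Gbp2, H2-K1 and H2-D1 lie only on features shared with other genes, and no feature was listed for Ifi44 in the annotation used.

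Interferons are secreted proteins that cells release when they sense foreign nucleic acid. The type I interferons bind the receptor made of Ifnar1 and Ifnar2, and the signal reaches the nucleus through a complex that contains Stat2 and Irf9. It switches on a set of antiviral genes and raises the display of peptides by class I molecules. Pluripotent stem cells are known for a weak response to interferon, and a constant expression of some antiviral genes, the Ifitm family among them, is known in such cells.

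RNA from mouse embryonic stem cells (ESCs) and from day 7 embryoid bodies (EBs) was read on 12 arrays, each with 1 sample. EBs are aggregates of ESCs that differentiate in suspension after the withdrawal of LIF. Cells lacking HP1β (HP1βKO, targeted gene Cbx1) and cells lacking HP1α (HP1αKO, targeted gene Cbx5) were compared with WT cells, in both states and with 2 arrays per group. HP1 proteins are chromodomain proteins that bind methylated histone H3 in heterochromatin. The ESCs were grown on mitotically inactive mouse embryonic fibroblasts and, according to the study's methods, sorted for the surface antigen SSEA1. The labels name the line R1 for both knockouts and HM1 for WT, so the effects of the knockout and of the line cannot be told apart where the labels hold. The study's methods name HM1 for WT too, as a littermate line.

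The targeted gene Cbx1 read 7.73 and 7.67 in EB HP1βKO and 7.59 and 7.99 in ESC HP1βKO, below all 8 other arrays. Cbx5 read 9.20 and 9.21 in EB HP1αKO, against 10.36 and 10.40 in EB WT. In ESCs it went against the label of 2 arrays, with 10 in the library labelled ESC HP1αKO 2 and 8.29 in the library labelled ESC WT 2. Comparisons between groups that use these libraries are given below with all arrays. What changed without these 2 is given in part, and not for each gene. Values are log2 signals, on which a difference of 1 is a 2-fold change. The study's methods take a signal above 45 on the linear scale as above background, and 9 of the 32 genes stayed under it on every array (Ifit1, Ifit2, Ifit3, Irf7, Oasl1, Mx1, Mx2, Ifih1 and Dhx58). A further 14 exceeded it on all 12 arrays.

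**Figure D1:**
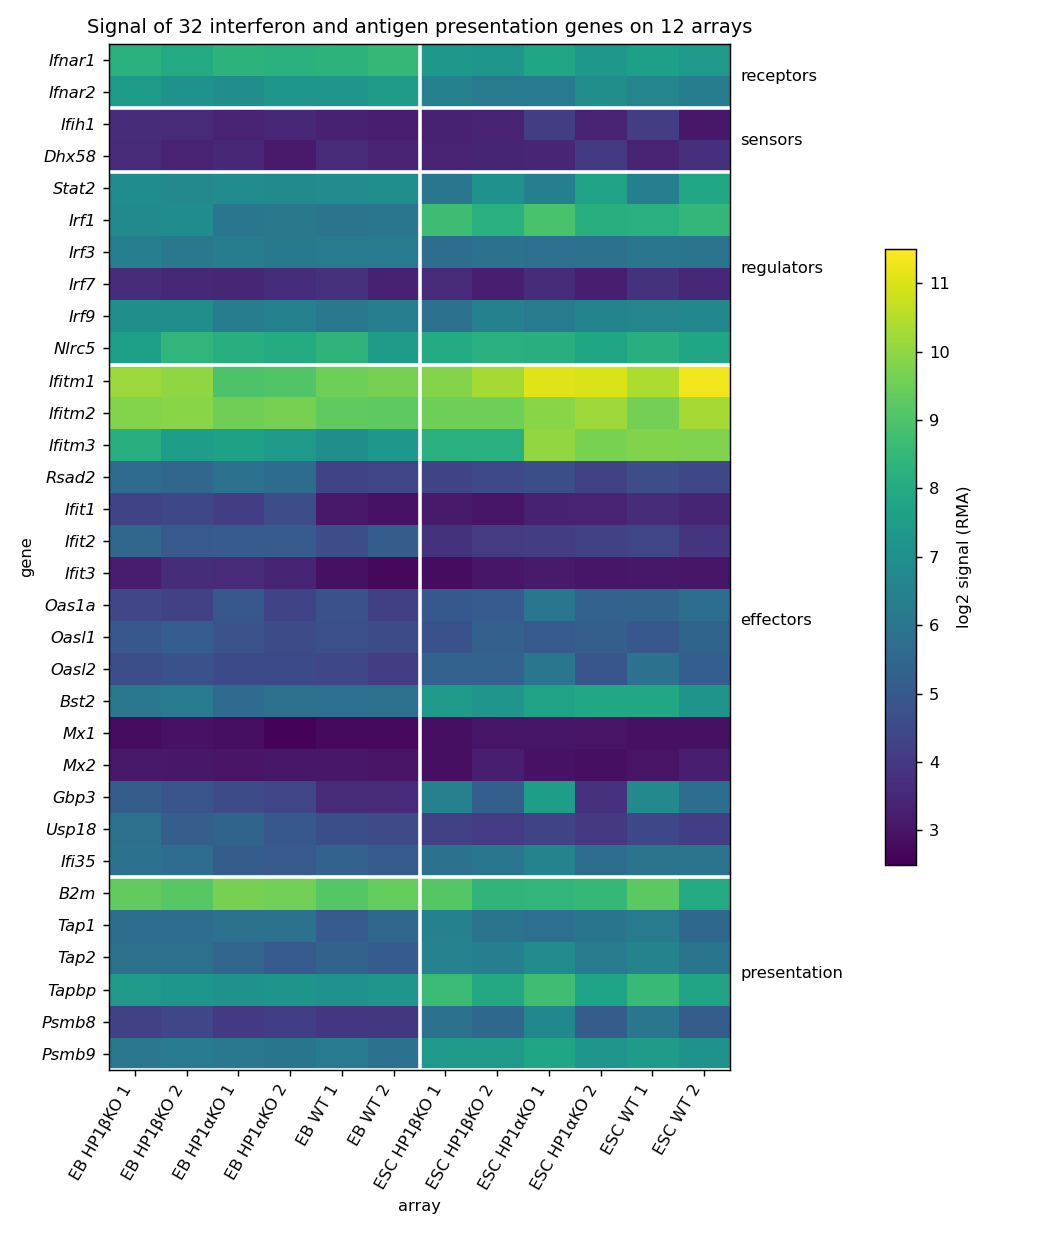
Log2 signal of the 32 measured genes (rows, by role) on each of the 12 arrays (columns, EBs on the left and ESCs on the right). Ifitm1, Ifitm2 and B2m lie above 8 on every array, Irf1, Bst2, Psmb8 and Psmb9 are dimmer in EBs, and Mx1, Mx2 and Ifit3 stay below 4 on every array.

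Promoter sequence was used to show which of these genes carry the motifs through which interferon acts. The interferon-stimulated response element (ISRE), bound by the complex with Stat2 and Irf9 and by other Irf proteins, was searched by its core, GAAA and GAAA with any 2 bases between them, on both strands. The interferon-γ-activated site (GAS), which Stat dimers bind, was searched as TTCNNNGAA, which reads the same on both strands. The windows run from 250 bases before to 50 bases after the start of a gene (RefSeq, GRCm38.p6), and 31 of the 37 genes had one. An ISRE core was found in 13 of 31 (41.9%), against 3.99% of 27025 genes, and a GAS in 9 of 31 (29.0%), against 9.55%. The motifs overlap each other in Bst2 and Ifitm3. The stretches below belong to the genes with an ISRE core that were higher in EB HP1βKO, and to Irf1, the regulator that differed most. They are given 5′ to 3′ on the strand of the gene, with the ISRE core in capitals for the first 5 and the GAS in capitals for Irf1.

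Rsad2 (chr12:26456538-26456597, minus strand): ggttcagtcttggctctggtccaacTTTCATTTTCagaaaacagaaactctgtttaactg
Ifit1 (chr19:34640760-34640838, plus strand): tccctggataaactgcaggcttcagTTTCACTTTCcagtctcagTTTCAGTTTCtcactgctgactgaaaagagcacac
Ifit3 (chr19:34583348-34583441, plus strand): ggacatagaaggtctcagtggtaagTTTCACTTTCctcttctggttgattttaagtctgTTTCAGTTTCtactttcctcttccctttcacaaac
Gbp3 (chr3:142559974-142560039, plus strand): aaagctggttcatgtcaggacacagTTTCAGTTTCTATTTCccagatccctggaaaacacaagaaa
Ifitm2 (chr7:140955973-140956032, minus strand): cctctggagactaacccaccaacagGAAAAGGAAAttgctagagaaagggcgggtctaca
Irf1 (chr11:53769899-53769957, plus strand): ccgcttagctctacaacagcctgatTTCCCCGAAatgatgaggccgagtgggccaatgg

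Ifit1, Ifit3 and Gbp3 each hold 2 cores, which overlap in Gbp3. The core of Rsad2 begins 120 bases before the start, those of Ifit1 104 and 85 bases and the GAS of Irf1 90 bases before it. A match describes the letters of the window and does not show that a factor binds there.

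In day 7 EBs, 11 of the 32 genes were higher in HP1βKO than in WT and none was lower (34.4%, where 8.56% of all genes passed the test, 4.35% higher and 4.21% lower). The genes were Gbp3, Ifit1, Rsad2, Usp18, Irf1, Irf9, Ifit3, Tap2, Ifi35, Ifitm2 and Ifitm1. Differences ran from 0.47 (1.39-fold) for Ifitm1 to 1.44 (2.71-fold) for Gbp3. The median over the 32 genes was 0.38, against 0.03 over all genes. The arrays of the knockout and of WT did not overlap for 21 of the 32 genes (65.6%, against 45.8% of all genes), 20 of them with the knockout above (25.2% of all genes). The test was limma's on the 6 EB arrays, with p-values adjusted over all 19938 genes, and errors are its standard errors. The RNA came from whole EBs, in which fewer cells of a type and less RNA per cell cannot be told apart.

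HP1αKO EBs differed from WT in 5 of the 32 genes (15.6%, where 5.04% of all genes passed, 3.03% higher and 2.01% lower), with Rsad2, Ifit1, Gbp3 and Ifit3 higher and Ifitm1 lower. The median difference was 0.09, against 0.01 over all genes, and the share of the 32 without overlap was 43.8%, against 47.5% of all genes. Of the genes called in either knockout, 4 were called higher in both, Ifitm1 was called in opposite directions, and 6 were called in HP1βKO EBs alone. The same 2 WT arrays enter both comparisons, and calls in 1 knockout alone do not show that the knockouts differ. Between the knockouts themselves, 7 genes were higher in EB HP1βKO than in EB HP1αKO and none was lower (21.9%, where 9.77% of all genes passed, 4.13% higher and 5.64% lower). These were Ifitm1, Irf1, Ifi35, Irf9, Tap2, Gbp3 and Bst2, and none of them passed with all 12 arrays in 1 fit.

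**Figure D2:**
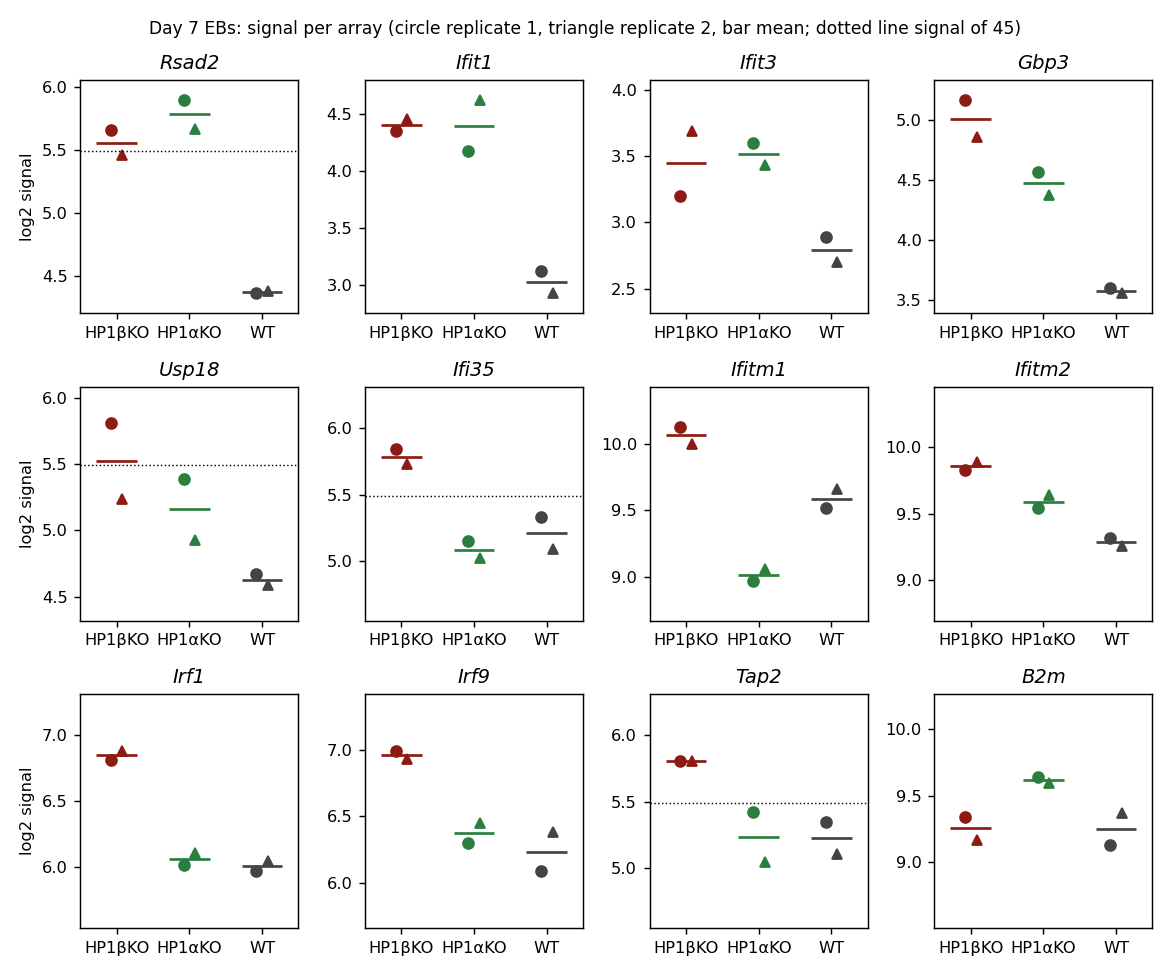
Log2 signal of 12 genes in day 7 EBs, with a point for each array (circle replicate 1, triangle replicate 2), a bar for the group mean and a dotted line at a signal of 45 where it lies in the range. Rsad2, Ifit1, Ifit3 and Gbp3 lie above WT in both knockouts, whereas Irf1, Irf9, Tap2 and Ifi35 stand apart in HP1βKO, and B2m overlaps between HP1βKO and WT.

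Among the effectors, 8 of 16 were called higher in EB HP1βKO. Rsad2 encodes viperin, an enzyme that makes a chain-terminating nucleotide against viral polymerases. It read 5.66 and 5.46 in EB HP1βKO and 5.90 and 5.67 in EB HP1αKO, against 4.36 and 4.38 in EB WT. Both knockouts lay above both WT arrays, by 1.19 ± 0.12 for HP1βKO (adjusted p = 0.000569) and by 1.42 ± 0.12 for HP1αKO (adjusted p = 5e-04). The WT signal is under the background level, so the size of this difference is uncertain. The 2 knockouts differed by -0.23 ± 0.12 (adjusted p = 0.301).

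The Ifit genes encode proteins that bind foreign RNA, and all 3 members stayed under the background level. Ifit1 read 4.35 and 4.45 in EB HP1βKO and 4.17 and 4.62 in EB HP1αKO, against 3.12 and 2.93 in EB WT. Its differences from WT were 1.38 ± 0.15 in HP1βKO (adjusted p = 0.000995) and 1.37 ± 0.15 in HP1αKO (adjusted p = 0.00194), with no overlap between either knockout and WT. Ifit3 read 3.20 and 3.69 in EB HP1βKO and 3.60 and 3.43 in EB HP1αKO, against 2.89 and 2.70 in EB WT, where the adjusted p-values were 0.0442 and 0.0434. Ifit2, at 5.47 and 5.00 in EB HP1βKO against 4.64 and 5.14 in EB WT, overlapped and did not pass in either knockout. The Ifit, Ifitm, Gbp and Oas families hold close relatives, and whether a feature also detects them was not tested.

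Gbp3, a guanylate-binding protein of the interferon-induced GTPases, had one of the largest differences in HP1βKO EBs, close to that of Ifit1. It read 5.17 and 4.86 in EB HP1βKO and 4.57 and 4.38 in EB HP1αKO, against 3.60 and 3.56 in EB WT. The arrays were ordered by genotype with no overlap. The differences from WT were 1.44 ± 0.13 for HP1βKO (adjusted p = 0.000336) and 0.90 ± 0.13 for HP1αKO (adjusted p = 0.0061), and HP1βKO exceeded HP1αKO by 0.54 ± 0.13 (adjusted p = 0.0337). All 6 EB signals lie under the background level. The feature shared by Gbp2 and Gbp2b, which was not tested, read 5.46 and 4.76 in EB HP1βKO and 4.69 and 4.51 in EB HP1αKO, against 3.76 and 3.95 in EB WT.

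The Ifitm genes encode small membrane proteins that hinder the entry of viruses, and they gave the highest signals of the effectors. Ifitm1 was 10.13 and 10 in EB HP1βKO and 8.97 and 9.06 in EB HP1αKO, against 9.52 and 9.66 in EB WT. The 2 knockouts thus lay on opposite sides of WT, by 0.47 ± 0.10 for HP1βKO (adjusted p = 0.0268) and by -0.57 ± 0.10 for HP1αKO (adjusted p = 0.0183). Between the knockouts the difference was 1.05 ± 0.10 (adjusted p = 0.000437). A second, dimmer feature of Ifitm1 had the same order of groups. With the mean over both features the difference of HP1βKO from WT was 0.46 and did not pass (adjusted p = 0.0605). Ifitm2 was 9.83 and 9.89 in EB HP1βKO and 9.54 and 9.64 in EB HP1αKO, against 9.32 and 9.26 in EB WT. It was called in HP1βKO (0.57 ± 0.10, adjusted p = 0.00851) and not in HP1αKO (0.30 ± 0.10, adjusted p = 0.14). Ifitm3 had a wider spread, at 8.16 and 7.54 in EB HP1βKO and 7.66 and 7.33 in EB HP1αKO, against 6.99 and 7.29 in EB WT, and did not pass (adjusted p = 0.0786 and 0.472).

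Usp18, a protease that removes Isg15 from proteins and restrains the interferon receptor, read 5.81 and 5.24 in EB HP1βKO, against 4.67 and 4.59 in EB WT. The difference of 0.90 ± 0.20 passed (adjusted p = 0.0305), while that in HP1αKO did not (5.39 and 4.93, adjusted p = 0.218). Ifi35, an interferon-induced leucine zipper protein, was 5.84 and 5.73 in EB HP1βKO and 5.15 and 5.02 in EB HP1αKO, against 5.33 and 5.09 in EB WT. It stood apart in HP1βKO, from WT (0.58 ± 0.12, adjusted p = 0.0188) and from HP1αKO (0.70 ± 0.12, adjusted p = 0.00648). The signals of Ifi35 in EB WT and EB HP1αKO were under the background level. Bst2, or tetherin, which holds budding viruses at the cell surface, read 6.12 and 6.19 in EB HP1βKO and 5.65 and 5.83 in EB HP1αKO, against 5.77 and 5.83 in EB WT. Its HP1βKO arrays lay above all others, and the test passed against HP1αKO (adjusted p = 0.0415) but not against WT (adjusted p = 0.0776).

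The remaining effectors did not pass in EBs. The synthetase Oas1a, whose product activates an RNase, and its relatives Oasl1 and Oasl2 differed from WT by between -0.17 and 0.43 in HP1βKO and by between 0.02 and 0.25 in HP1αKO. The lowest of these values, -0.17, was that of Oas1a. A feature shared by Oas1a and Oas1g, which was not tested, was highest in HP1βKO. It read 4.66 and 4.72 in EB HP1βKO and 4.14 and 4.18 in EB HP1αKO, against 3.97 and 4.19 in EB WT, all under the background level. For the dynamin-like GTPases Mx1 and Mx2 the differences lay between -0.02 and 0.15, on signals from 2.58 to 3.13 in EBs, at the bottom of the scale. The feature of Isg15, the ubiquitin-like protein that is conjugated to other proteins, is shared with Gm9706 and read between 3.79 and 4.06 on all 6 EB arrays.

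Of the regulators, 2 of 6 rose in EB HP1βKO and none was called in EB HP1αKO. Irf1, a transcription factor that interferon γ induces strongly, read 6.81 and 6.88 in EB HP1βKO and 6.02 and 6.11 in EB HP1αKO, against 5.97 and 6.05 in EB WT. The HP1βKO arrays stood clear of all 4 others, by 0.84 ± 0.10 from WT (adjusted p = 0.00138) and 0.78 ± 0.10 from HP1αKO (adjusted p = 0.00151). All these signals are above background. A second feature of Irf1, near background, read 3.82 and 4.28 in EB HP1βKO, against 4.22 and 3.96 in EB WT, and overlapped. With the mean over both features the difference from WT was 0.40 and did not pass (adjusted p = 0.0759). Irf9, the DNA-binding partner of Stat2, read 6.99 and 6.93 in EB HP1βKO and 6.30 and 6.45 in EB HP1αKO, against 6.09 and 6.38 in EB WT. It too was highest in HP1βKO, by 0.72 ± 0.12 over WT (adjusted p = 0.00836) and 0.58 ± 0.12 over HP1αKO (adjusted p = 0.0197). Stat2, at 6.86 and 6.75 in EB HP1βKO against 6.85 and 6.98 in EB WT, overlapped between these groups. Irf3 and Irf7, which act downstream of the sensors, and Nlrc5, the transactivator of class I genes, did not pass. Over the 4 uncalled regulators and both knockouts, differences lay between -0.11 and 0.16. Nlrc5 has 19 features of its own, and the one used averaged 8.02 over all arrays, against 5.69 for the next highest. Its replicates spread widely, at 7.59 and 8.41 in EB HP1βKO against 8.37 and 7.47 in EB WT.

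The sensors of double-stranded RNA, Ifih1 (Mda5) and Dhx58 (Lgp2), stayed between 3.15 and 3.63 in EBs, under the background level. Ifnar1 was 8.25 and 8.01 in EB HP1βKO and 8.33 and 8.24 in EB HP1αKO, against 8.31 and 8.51 in EB WT, and Ifnar2 lay between 6.96 and 7.45 on the EB arrays. Neither receptor chain nor sensor passed in any comparison among EBs.

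Of the 6 presentation genes, Tap2 alone was called in EBs. It encodes a chain of the transporter that carries peptides into the endoplasmic reticulum. It read 5.81 and 5.81 in EB HP1βKO and 5.42 and 5.05 in EB HP1αKO, against 5.35 and 5.11 in EB WT. HP1βKO was higher than WT by 0.58 ± 0.14 (adjusted p = 0.0422) and than HP1αKO by 0.57 ± 0.14 (adjusted p = 0.0396). The signals of Tap2 in EB WT and EB HP1αKO were under the background level. Tap1, the other chain, was 5.75 and 5.72 in EB HP1βKO and 5.90 and 5.90 in EB HP1αKO, against 5.07 and 5.52 in EB WT. Both knockouts lay above WT without passing (adjusted p = 0.108 and 0.051).

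B2m, the light chain of class I molecules, overlapped between EB HP1βKO (9.34 and 9.17) and EB WT (9.13 and 9.37). In EB HP1αKO it read 9.64 and 9.60 and did not pass (adjusted p = 0.129). The proteasome subunits Psmb8 and Psmb9, which replace standard subunits on interferon, and the loading factor Tapbp differed from WT by between 0.03 and 0.39 and did not pass. H2-K1 and H2-D1, class I heavy chains, share 2 features with each other and with LOC547349, which were not tested. The brighter feature read 7.47 and 7.37 in EB HP1βKO and 8.04 and 8.01 in EB HP1αKO, against 7.90 and 8.11 in EB WT, so that HP1βKO was the lowest. The dimmer one read 6.52 and 6.49 in EB HP1βKO and 7.23 and 7.24 in EB HP1αKO, against 6.69 and 6.82 in EB WT.

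**Figure D3:**
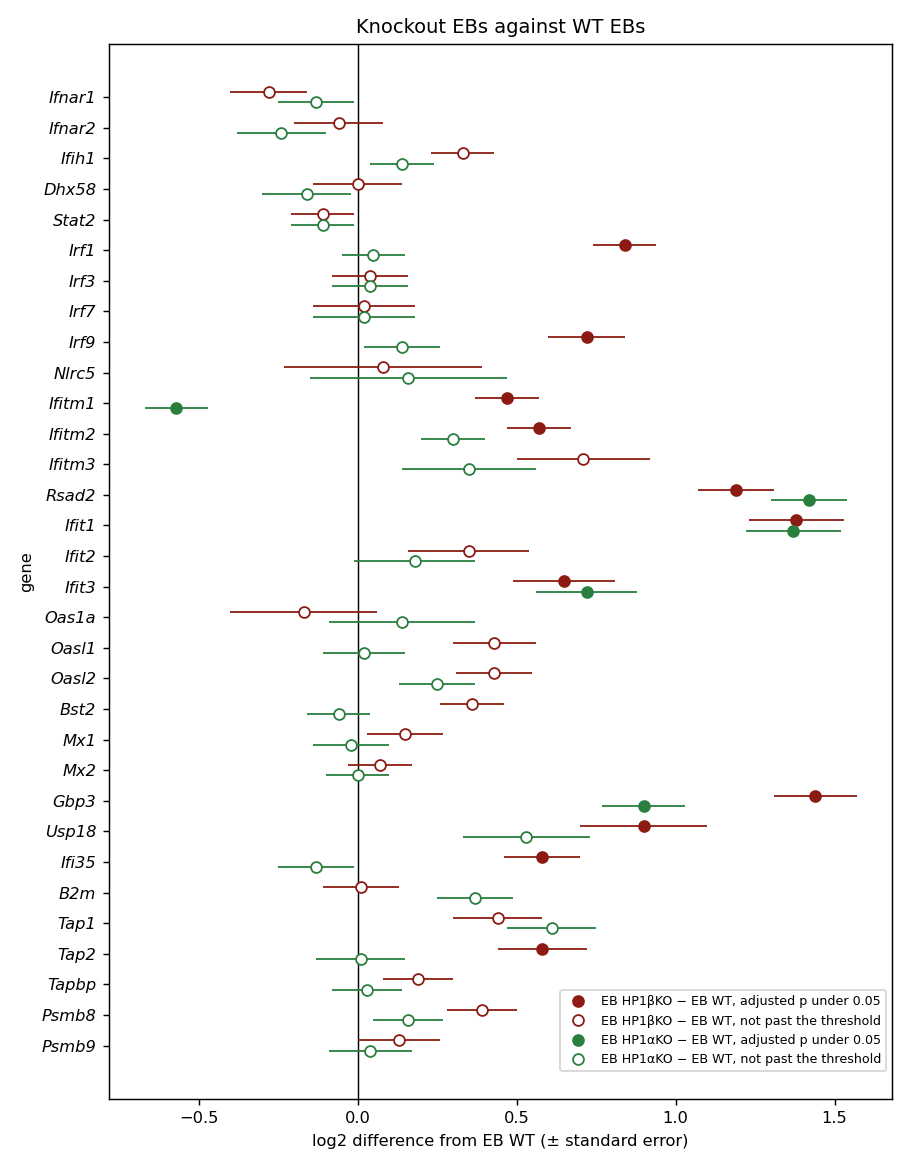
Log2 difference from EB WT (± standard error, 2 arrays per group) for each of the 32 genes in EB HP1βKO and EB HP1αKO, with filled points where the adjusted p is under 0.05. Most HP1βKO points lie right of 0, up to 1.44 for Gbp3, and the filled HP1αKO points are Rsad2, Ifit1, Gbp3 and Ifit3 on the right and Ifitm1 on the left.

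The calls in EBs depend on the arrays used for the error. With all 12 arrays in 1 fit, whose spread includes the more variable ESCs, only Rsad2 and Ifit1 passed in each knockout and none passed between the knockouts. When each of the 4 arrays of a comparison was left out in turn, Gbp3, Ifit1, Ifitm2, Irf1, Irf9 and Rsad2 passed every time in HP1βKO, and Ifit1 and Rsad2 in HP1αKO. The other 5 genes of HP1βKO passed in 1 of these 4 fits each, and in HP1αKO Gbp3 passed in 3, Ifitm1 in 1 and Ifit3 in 0.

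Markers of other cell types differed between the EB groups as well. Of 11 fibroblast markers measured, 8 were higher in EB HP1βKO than in EB WT, and 7 were higher and 1 was lower in EB HP1αKO. The mean of the 11 was 7.30 to 7.39 in EB HP1βKO and 7.31 to 7.36 in EB HP1αKO, against 6.43 to 6.50 in EB WT. Their summed signal was 6100 to 6700 in EB HP1βKO and 5010 to 5310 in EB HP1αKO, against 2650 to 2850 in EB WT. All 5 cardiac muscle markers fell in EB HP1βKO, with Tnnt2 at 7.26 and 7.01 against 9.89 and 9.79 in EB WT, while 3 rose in EB HP1αKO. Of 8 pluripotency markers, 3 were higher and 2 lower in EB HP1βKO, and 1 was higher and 4 lower in EB HP1αKO. The transcription factor Nanog was 8.92 and 8.74 in EB HP1βKO and 6.35 and 6.32 in EB HP1αKO, against 7.51 and 7.74 in EB WT. Sox2, another such factor, ran the other way, with 8.52 and 8.22 in EB HP1βKO and 9.98 and 9.95 in EB HP1αKO, against 8.83 and 9.09 in EB WT. The part of these cells in the interferon gene differences was not tested. Of 14 white blood cell markers, 13 never exceeded a signal of 45, and Cd68, the other one, read 5.41 and 5.88 in EB HP1βKO against 5.43 and 5.5 in EB WT. None of the 14 was called in EB HP1βKO, and Csf1r (0.56), Tyrobp (0.72) and Cx3cr1 (0.76), all under that level, were higher in EB HP1αKO. The summed signal of the list was 195 to 218 in EB HP1βKO and 220 to 225 in EB HP1αKO, against 184 to 198 in EB WT.

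Genes of the pathway outside the 37 were read from lists. Of 72 other interferon-induced genes measured, 10 were higher and none lower in EB HP1βKO, and 3 were higher and 1 lower in EB HP1αKO, with median differences of 0.16 and 0.08. The calls are 13.9% of the list in HP1βKO, where 8.56% of all genes passed, and 5.56% in HP1αKO, near the 5.04% of all genes. Of the 72, 46 never exceeded a signal of 45. The largest in HP1βKO was Lgals3bp, a secreted glycoprotein, at 8.10 and 7.92 against 6.33 and 6.21 in EB WT (1.74 ± 0.10, adjusted p = 3.92e-05). It was followed by Gbp7 (0.89), the ubiquitin ligase Dtx3l (0.87), the ADP-ribosyltransferase Parp12 (0.86) and Uba7 (0.80), the enzyme that activates Isg15. In HP1αKO the 3 were Trim30a (1.17), Slfn5 (0.80) and the chemokine Cxcl10 (0.62), none of which was called in HP1βKO, and Zc3hav1 was lower (-0.73). Trim30a, Slfn5 and Cxcl10 stayed under a signal of 45 on all EB arrays. Gbp7, Dtx3l, Parp12 and Uba7 were under it in EB WT.

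Upstream of these genes, 12 of 14 interferon ligands measured never exceeded a signal of 45, Ifnb1 and Ifng among them, and none of the 14 was called against WT in EBs. Stat3, which mediates the signal of LIF and related cytokines, was 8.65 and 8.57 in EB HP1βKO and 8.20 and 8.18 in EB HP1αKO, against 7.78 and 7.85 in EB WT. It passed in HP1βKO (0.79 ± 0.09, adjusted p = 0.00147), as did Socs3, the feedback inhibitor that Stat3 induces (0.64 ± 0.11, adjusted p = 0.00904). Ifngr2, a chain of the interferon γ receptor, rose by 0.49 and the ubiquitin ligase Trim25 by 0.64, while Irf5 was lower by -0.44. In EB HP1αKO the kinase Jak1 (0.51) and the sensor Ddx58 (0.45) were higher. These were 1 of the 17 regulators (5.88%) and 1 of the 15 sensors and adaptors (6.67%), where 5.04% of all genes passed. Of 15 other genes for peptide loading and the proteasome, none was called in either knockout. The class II genes H2-Ab1 (-0.72) and H2-Oa (-0.68) were lower in EB HP1βKO, 2 of the 14 class II genes measured (14.3%). H2-Oa lay under the background level. Of 20 class I heavy chain and class I-like genes, H2-T24 alone was called, near background in EB HP1αKO (0.43).

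In undifferentiated ESCs no gene passed limma's test (6 ESC arrays) in either knockout, among the 32 or among all genes, where 0% of genes were called. At an unadjusted p under 0.05 there were 3 of the 32 in HP1βKO (1.99% of all genes) and none in HP1αKO (0.607% of all genes). The 3 were Ifitm3, Ifit1 and Ifitm1, all with the HP1βKO arrays below both WT arrays. Ifitm3 had the clearest separation, at 8.22 and 8.23 in ESC HP1βKO and 10.04 and 9.68 in ESC HP1αKO, against 9.78 and 9.77 in ESC WT. The difference of HP1βKO from WT was -1.55 ± 0.16, with an unadjusted p of 8.02e-05 and an adjusted p of 1. Ifitm1 differed by -0.79 ± 0.32 and Ifit1, on signals near background, by -0.47 ± 0.15. The sign was below 0 for 23 of the 32 genes in HP1βKO, with a median of -0.16 against 0 over all genes, and the median in HP1αKO was 0.07. Both medians depended on single libraries: that of HP1βKO was -0.02 without ESC WT 1 and -0.27 without ESC WT 2, and that of HP1αKO was -0.08 without ESC WT 2 and -0.14 without ESC HP1αKO 1. Without the libraries labelled ESC WT 2 and ESC HP1αKO 2, WT and HP1αKO keep a single array each, so the test cannot decide which genes differ. The median was then -0.27 in HP1βKO and 0.07 in HP1αKO. Against ESC WT 1 alone, the HP1βKO differences were then -1.55 for Ifitm3, -0.34 for Ifitm1 and -0.59 for Ifit1. Of 32 signs 27 were below 0, but ESC WT 1 was itself above ESC WT 2 in 22 of the 32 genes. The share of such signs over all genes was not counted. The ESC arrays were more variable than the EB arrays, with an SD of the replicate differences over all genes of 0.33 in HP1βKO, 0.42 in HP1αKO and 0.47 in WT, against 0.22, 0.15 and 0.22 in the EBs.

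Some of this spread ran with the replicate number. The ESC array of replicate 1 was higher than that of replicate 2 in all 3 genotypes for 9 of the 32 genes (28.1%, against 17.9% of all genes). They were Gbp3, Psmb8, Psmb9, Tap2, Tapbp, Oasl2, Usp18, Irf7 and Ifnar1. Replicate 2 was the higher one throughout for 4 (12.5%, against 17.4%), namely Stat2, Irf9, Oasl1 and Dhx58. Gbp3 read 6.45 and 5.24 in ESC HP1βKO and 7.52 and 3.77 in ESC HP1αKO, against 6.74 and 5.76 in ESC WT. Its replicates differed most in HP1αKO, a gap that rests on the library labelled ESC HP1αKO 2. Without that library and the one labelled ESC WT 2, only the HP1βKO pair remains, in which Stat2 differed by 1.07 and Psmb8 by 0.34 between replicates. Psmb8 behaved alike with 5.84 and 5.5, 6.69 and 5.14, and 6.03 and 5.17 for HP1βKO, HP1αKO and WT, whereas Stat2 was lower in replicate 1, at 6.02 and 7.10, 6.39 and 7.67, and 6.38 and 7.90. The mean of the 6 presentation genes was 7.31 and 6.92 in ESC HP1βKO and 7.38 and 6.80 in ESC HP1αKO, against 7.34 and 6.59 in ESC WT.

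Fibroblast markers were also higher on replicate 1. The mean of the 11 was 5.21 and 4.53 in ESC HP1βKO and 5.53 and 4.42 in ESC HP1αKO, against 6.36 and 4.32 in ESC WT, with replicate 1 of each genotype the higher. Their summed signal was 703 and 361 in ESC HP1βKO and 1010 and 334 in ESC HP1αKO, against 1730 and 307 in ESC WT. Their part in the replicate differences was not tested.

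**Figure D4:**
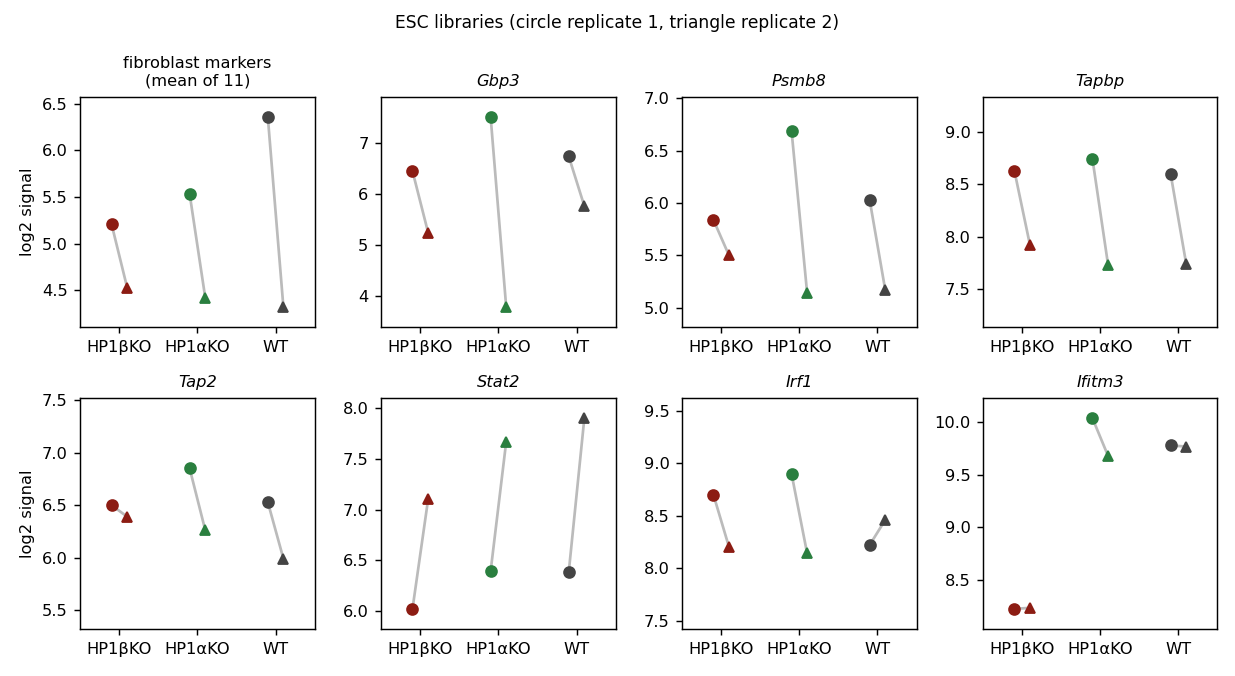
Log2 signal on the 6 ESC arrays (circle replicate 1, triangle replicate 2, joined within a genotype) for the mean of 11 fibroblast markers and for 7 genes. The fibroblast mean, Gbp3, Psmb8, Tapbp and Tap2 fall on the second array of each genotype, Stat2 is higher there, and Ifitm3 is near 8.2 on both HP1βKO arrays.

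Many of these genes differed between the states, with less Irf1, Bst2 and immunoproteasome transcript and more Ifnar1 transcript in EBs. Comparing EBs with ESCs of the same genotype, 12 of the 32 were called in HP1βKO (37.5%), 17 in HP1αKO (53.1%) and 15 in WT (46.9%), where 20.7%, 24.8% and 20.7% of all genes passed. Of these, 8 were higher and 4 lower in HP1βKO, 7 higher and 10 lower in HP1αKO, and 3 higher and 12 lower in WT. Of all genes, 12.6% were higher and 8.1% lower in HP1βKO, 15.1% and 9.76% in HP1αKO, and 12.6% and 8.08% in WT. These tests were made on all 12 arrays. With each array centred on its median, which moved the median of all genes to -0.16 in HP1βKO, -0.20 in HP1αKO and -0.11 in WT, the calls were 7 higher and 7 lower, 6 and 14, and 2 and 13. The share of higher genes among all calls was 60.9% in HP1βKO, 60.7% in HP1αKO and 60.9% in WT, and 40%, 38% and 50.6% after centring. Bst2, Irf1, Psmb8 and Psmb9 were lower in EBs in all 3 genotypes, and Ifit2 and Ifnar1 were higher in all 3. With each of the 4 arrays of a comparison left out in turn, Bst2, Irf1 and Psmb9 passed every time in all 3 genotypes. Psmb8 passed in 0 of 4 fits in HP1βKO, 2 in HP1αKO and 1 in WT, Ifit2 in 4, 1 and 2, and Ifnar1 in 3, 1 and 4. In 11 genes no genotype passed, Gbp3 among them, whose ESC signals spread from 3.77 to 7.52.

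Irf1 was lower in EBs by -1.60 ± 0.24 in HP1βKO (adjusted p = 0.00114), -2.46 ± 0.24 in HP1αKO (adjusted p = 7.45e-05) and -2.33 ± 0.24 in WT (adjusted p = 0.000143). Its ESC signals, between 8.14 and 8.90, did not overlap with those of EBs in any genotype. Bst2 followed with -1.13, -2.04 and -1.73. The immunoproteasome genes fell together, Psmb8 by -1.34, -1.81 and -1.66 (± 0.42) and Psmb9 by -1.22, -1.46 and -1.27 (± 0.20), in the order HP1βKO, HP1αKO and WT. All EB signals of Psmb8 lie under the background level, so the size of its fall is uncertain. Tap2 was lower in HP1αKO (-1.32) and WT (-1.03), and not called in HP1βKO (-0.64 ± 0.23, adjusted p = 0.0818). B2m went the other way, with 9.64 and 9.60 in EB HP1αKO against 8.44 and 8.48 in ESC HP1αKO (1.16 ± 0.34, adjusted p = 0.0325), a call that passed in 0 of 4 fits with an array left out. It was not called in the other genotypes.

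Both receptor chains had higher means in EBs. Ifnar1 differed by 0.87 in HP1βKO, 0.74 in HP1αKO and 0.94 in WT, each ± 0.17 and called. Ifnar2 differed by 0.96, 0.50 and 0.87, and passed in HP1βKO and WT. In HP1αKO its arrays overlapped between the states. With an array left out it passed in 2 of 4 fits in HP1βKO and in 1 of 4 in WT. Ifit2 rose as well, by 1.28, 0.87 and 0.76, on signals under the background level throughout.

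Several effectors passed in some genotypes and not in others, which does not show that the genotypes differ. Rsad2 was higher in EBs than in ESCs by 1.15 ± 0.16 in HP1βKO (adjusted p = 0.000771) and by 1.31 ± 0.16 in HP1αKO (adjusted p = 0.000302), and was not called in WT (-0.16). Usp18 had the same calls, with 1.34, 1.00 and 0.33, but the difference between its knockout and WT values did not pass (1.01, adjusted p = 0.267 for HP1βKO, and 0.68, adjusted p = 0.946 for HP1αKO). Ifit1 was called in opposite directions, 1.33 ± 0.16 in HP1βKO and 1.03 ± 0.16 in HP1αKO against -0.52 ± 0.16 in WT, where the adjusted p was 0.048. The WT call passed in 0 of the 4 fits with an array left out, and all these signals are under the background level. Ifitm3 fell by -2.37 ± 0.21 in HP1αKO and -2.63 ± 0.21 in WT, and differed by -0.37 ± 0.21 in HP1βKO, with an adjusted p of 0.283. Ifitm1 fell by -2.00 in HP1αKO and -1.25 in WT, and differed by 0.01 in HP1βKO. The difference between knockout and WT did not pass for Ifitm1 (adjusted p = 0.21 for HP1βKO and 0.958 for HP1αKO).

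**Figure D5:**
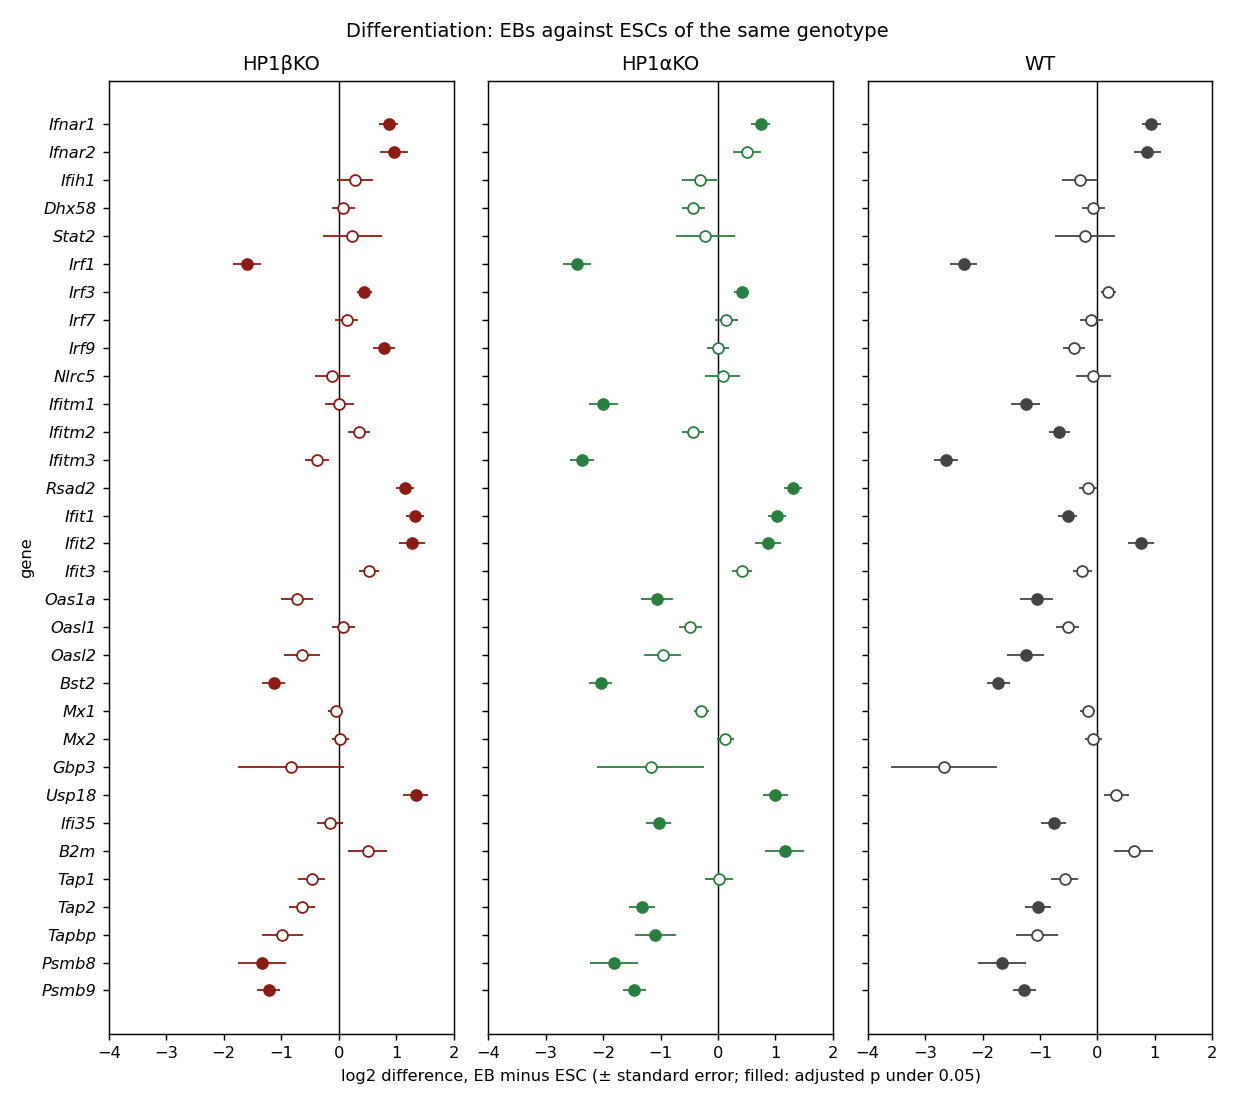
Log2 difference between EBs and ESCs (± standard error, 2 arrays per group, test on 12 arrays) for each of the 32 genes, in a panel for each genotype, with filled points where the adjusted p is under 0.05. Irf1, Bst2, Psmb8 and Psmb9 lie left of 0 in all panels, and Rsad2, Ifit1 and Usp18 lie right of 0 as filled points in the knockouts only.

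The difference of the knockout effect between the 2 states was tested directly. For HP1βKO it passed for Ifitm3 (2.26 ± 0.30, adjusted p = 0.00889), Ifit1 (1.85 ± 0.23, adjusted p = 0.00569) and Rsad2 (1.31 ± 0.22, adjusted p = 0.0306), 3 of 32 genes where 0.818% of all genes passed (0.416% higher and 0.401% lower). For HP1αKO it passed for Ifit1 (1.55 ± 0.23, adjusted p = 0.0388) and Rsad2 (1.46 ± 0.22, adjusted p = 0.0457), where 0.201% of all genes passed (0.15% higher and 0.0502% lower). Both comparisons share the WT arrays. With each array left out in turn, Ifit1 passed in all 8 fits for HP1βKO, Ifitm3 in 7 and Rsad2 in 2, and in HP1αKO Ifit1 and Rsad2 passed in 2 each. Without the libraries labelled ESC WT 2 and ESC HP1αKO 2, 7 genes passed for HP1βKO, these 3 among them, and the same 2 passed for HP1αKO. Between EBs and ESCs, the median of the 32 genes without those libraries was 0.05 in HP1βKO, -0.22 in HP1αKO and -0.35 in WT. With all arrays it was 0.05, -0.30 and -0.46. ESC WT and ESC HP1αKO then keep a single array each. Between states, Ifitm2, Ifit2 and Oas1a in WT and Irf3 in HP1αKO no longer passed, while other genes newly passed in every genotype. With single arrays that fit cannot settle which genes differ.

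Of the genes called higher in EB HP1βKO and with a promoter window, 5 of 9 held an ISRE core (Rsad2, Ifit1, Ifit3, Gbp3 and Ifitm2), as did 6 of the 17 not called, B2m, Bst2, Ifih1, Ifitm3, Oas1a and Stat2. The 4 genes called higher in both knockouts all held a core. Usp18 and Tap2, also called in EB HP1βKO, had no window. The genes were chosen as interferon genes, and 13 of the 31 with a window held a core. The part of the motif in these calls was not tested.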

How the data were processed

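RNA of 6 groups with 2 arrays each was hybridised to Affymetrix arrays. The authors summarised the probes by RMA in Affymetrix Expression Console, and the deposited values are normalized log2 signals, one per feature, from 1.55 to 13.6. RMA shrinks differences near background, and the number of arrays limits the precision. The study's methods name an exon array, while the feature IDs match the annotation of the Mouse Gene 1.0 ST array, which was used. Of 35556 features, 21789 carry a single symbol, and the highest mean feature of a gene was kept (19938 genes).

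Groups follow the labels, which call the arrays biological replicates. No source used here says that they came from separate cultures, so p-values measure only the spread between these samples. Differences were tested with limma 3.58.1 (R 4.3.3; lmFit and eBayes, two-sided, Benjamini-Hochberg over all genes of a comparison, threshold 0.05). Genotypes were compared within a state on its 6 arrays (3 residual degrees of freedom) and states on all 12 (6), because replicates spread more in ESCs. On simulated data the comparisons between states called false genes at a rate above the threshold. Replicate numbers, 2 per group, were not treated as pairs.

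The 37 genes, the pathway lists and the marker lists were chosen with earlier results of these data known. All 37 may be named, and of other lists the called genes, at most the 5 largest rises and falls per comparison, the defining markers and the targeted genes. Alternatives were a signal floor of 45, median centring, an intensity trend, the mean over features, a replicate block, another choice of arrays and leaving out arrays. The difference of the HP1αKO effect between states and a crossed block were added after seeing the data. Promoter windows are from RefSeq (GRCm38.p6), and 31 of the 37 genes matched.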

Additional observations from a re-analysis of the deposited data

Results flagged for a closer look

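These results stand out because the effect of a knockout, measured against WT, differed between EBs and ESCs. For HP1βKO the effect in EBs exceeded that in ESCs by 2.26 for Ifitm3 (limma, adjusted p = 0.00889), by 1.85 for Ifit1 (adjusted p = 0.00569) and by 1.31 for Rsad2 (adjusted p = 0.0306). Both HP1βKO arrays lay below WT for Ifitm3 and Ifit1 in ESCs and above it in EBs. For HP1αKO the excess was 1.55 for Ifit1 (adjusted p = 0.0388) and 1.46 for Rsad2 (adjusted p = 0.0457), a comparison added after seeing the data.

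In 3 further genes both HP1βKO arrays lay above both WT arrays in EBs and below both in ESCs, while the test of the difference did not pass. The effect in EBs exceeded that in ESCs by 1.26 for Ifitm1 (adjusted p = 0.21), by 1.01 for Ifitm2 (adjusted p = 0.173) and by 1.20 for Irf9 (adjusted p = 0.0931).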

How the results depend on the processing

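Over all alternatives, 792 values of called genes were recomputed. All kept their sign, and 168 no longer passed. With all 12 arrays in 1 fit, the calls among the 32 genes were 2 in EB HP1βKO and 2 in EB HP1αKO against EB WT, and 0 between the knockouts, and those among all genes were 425 against 1707, 175 against 1005 and 539 against 1948. In EB HP1αKO the calls were 3 with a signal floor of 45 and 8 with an intensity trend (1587 genes). Without the libraries labelled ESC WT 2 and ESC HP1αKO 2, the difference of the HP1βKO effect between states was called in 7 (642 against 163 genes), and 169 against 40 genes were called for HP1αKO. The HP1αKO difference was called in 0 with the floor, 1 after centring, 1 with the trend, 1 with a replicate block and 0 with array weights.

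With each array left out in turn, which leaves fewer arrays, the calls were 7 to 9 in EB HP1βKO, 2 to 4 in EB HP1αKO, 2 to 4 between these, 8 to 10 between states in HP1βKO, 9 to 16 in HP1αKO and 6 to 12 in WT, and 1 to 5 and 0 to 2 for the differences of the HP1βKO and HP1αKO effects. Among all genes, EB HP1αKO had 278 to 653 calls and EB HP1βKO 1125 to 1358. The calls of EB HP1βKO were 7 without its replicate 1, those of EB HP1αKO 2 and 3 without its replicates 1 and 2, and those between EB WT and ESC WT 8 and 6 without EB WT replicates 1 and 2. Between states in HP1αKO they were 10 and 9 without the EB replicates 1 and 2. The difference of the HP1βKO effect had 5 calls without ESC WT replicate 1 and 1, Ifit1, without EB WT replicate 1.

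With replicate number as a block, EB HP1βKO kept 9 of its calls (Ifitm1 and Ifit3 were lost) and EB HP1αKO 4 (658 genes). Crossed numbers, a pairing added after seeing the data, gave 13 in EB HP1βKO. Deviations of same-numbered arrays correlated at 0.109, -0.465 and -0.088 in EBs and at 0.224 to 0.414 in ESCs. In ESCs no alternative that kept every array called any gene. After centring, the share of higher genes among all calls was 45.8% against 60.1% in EB HP1αKO. Signals near background limit the fold changes of Ifit1, Ifit3, Gbp3, Rsad2, Usp18, Ifi35, Tap2 and Psmb8. The cause of these changes was not tested.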
